A study of Mus musculus with 9 samples.

Results

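Th1 cells are the CD4+ T helper cells that make interferon gamma. Expression of 10 genes of this programme was followed in CD4+ T cells from mice with experimental autoimmune encephalomyelitis (EAE), a disease induced by immunization and used as a model of multiple sclerosis. They are the cytokine gene Ifng, the transcription factor genes Tbx21, Hlx and Runx3, the receptor genes Il12rb1, Il12rb2, Il18r1, Il18rap and Ifngr1, and the chemokine receptor gene Cxcr3. The genes were chosen by symbol, and all 10 were found among the 39253 genes of the deposited count table. RNA was sequenced on day 9 of EAE from 5 samples labelled ERα KO (knockout of estrogen receptor alpha, encoded by Esr1) and 4 labelled wildtype. Batch 1, as the labels name it, holds 3 ERα KO and 2 wildtype samples, and batch 2 holds 2 and 2. The labels do not give the cells in which the knockout acts, the tissue, the age or the sex of the mice, and the series title concerns ERα in dendritic cells. Nothing in the labels says that the samples came from separate animals, so each p-value refers to the spread among these libraries, which may be technical.

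In a naive CD4+ T cell, antigen and interferon gamma signalling induce T-bet, the product of Tbx21. T-bet raises Ifng, Cxcr3 and Il12rb2, and IL-12 acting through STAT4 then makes the cell responsive to IL-18. IL-18 and IL-12 together drive interferon gamma without further antigen. In EAE, Th1 and Th17 cells are both found in the inflamed central nervous system.

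The libraries of the batches differed in depth and in background. Batch 1 libraries held 4926347 to 11296593 counts each, and batch 2 libraries 45013017 to 69844721. Between 32046 and 34085 genes had at least 1 count in batch 1 libraries, against 17008 to 18309 in batch 2. Il12a, Il12b and Il27, cytokine genes of antigen-presenting cells, had 0 counts in all 4 batch 2 libraries. In batch 1 they stood at 0.27 to 2.76 CPM (a gene's count over the library total, times 1e+06). A batch 1 level of a few CPM thus cannot be told apart from background or from RNA of other cells, whose markers are given below. Esr1 was at 0.14 and 0.26 CPM in the batch 2 ERα KO libraries, against 1.45 and 1.69 CPM in the wildtype libraries, a difference that did not pass over all genes (log2 fold change -2.96 ± 0.70, SE; edgeR adjusted p = 0.618). In batch 1, Esr1 averaged 9.64 ± 3.35 CPM in ERα KO (SD, n = 3) and 10.6 ± 8.04 CPM in wildtype (SD, n = 2), so it does not check the labels there. Xist, which is transcribed from the inactive X chromosome, was at 30.4 CPM in ERα KO replicate 3 and at 1745 to 2680 CPM in the other batch 1 libraries, and in batch 2 at 0 to 0.29 CPM. Ddx3y, a gene of the Y chromosome, was at 55.4 CPM in ERα KO replicate 3, at 93.6 to 107 CPM in batch 2 and at 0 in the other libraries, so these sex-linked transcripts differed between batches and, in batch 1, within the ERα KO group. Cd4 and Cd3e, which define the cells, were at 925 to 1321 CPM and 1071 to 1522 CPM across the 9 libraries. In batch 1, 5 CD4 T cell markers summed to 2570 to 2676 CPM in ERα KO, against 3031 and 2966 CPM in wildtype. In batch 2 they summed to 3645 and 3687 CPM in ERα KO, against 3149 and 3373 CPM in wildtype. These sums were lower in ERα KO without overlap in batch 1, where 5.19% of all tested genes were. They were higher without overlap in batch 2, where 19.6% were. Single markers overlapped in part, Cd5 in both batches and Cd4 in batch 2.

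Of the 10 genes, 0 passed the test for a genotype difference in either batch or in both batches together, with edgeR's quasi-likelihood test and Benjamini-Hochberg adjustment over all tested genes. Within batch 2, 9 of the 10 had lower fitted levels in ERα KO. Their median difference was -0.59 on the log2 scale, against -0.02 over all 15910 tested genes, and without wildtype replicate 4 there were 6 lower, with a median of -0.065. Within batch 1 there were 4 lower and 6 higher, with a median of 0.03, against 0.04 over all genes, but 8 lower under DESeq2's size factors, which moved the median of all genes by -0.12. The batch 1 median was 0.44, with 3 lower, without wildtype replicate 1 and -0.26, with 7 lower, without wildtype replicate 2. Ifng, Il18r1, Il18rap and Hlx had negative fold changes in both batches, and those of Il18r1 and Il18rap in batch 1 turned positive without wildtype replicate 1. In bulk RNA, fewer Th1 cells and less RNA per cell cannot be told apart.

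**Figure D1:**
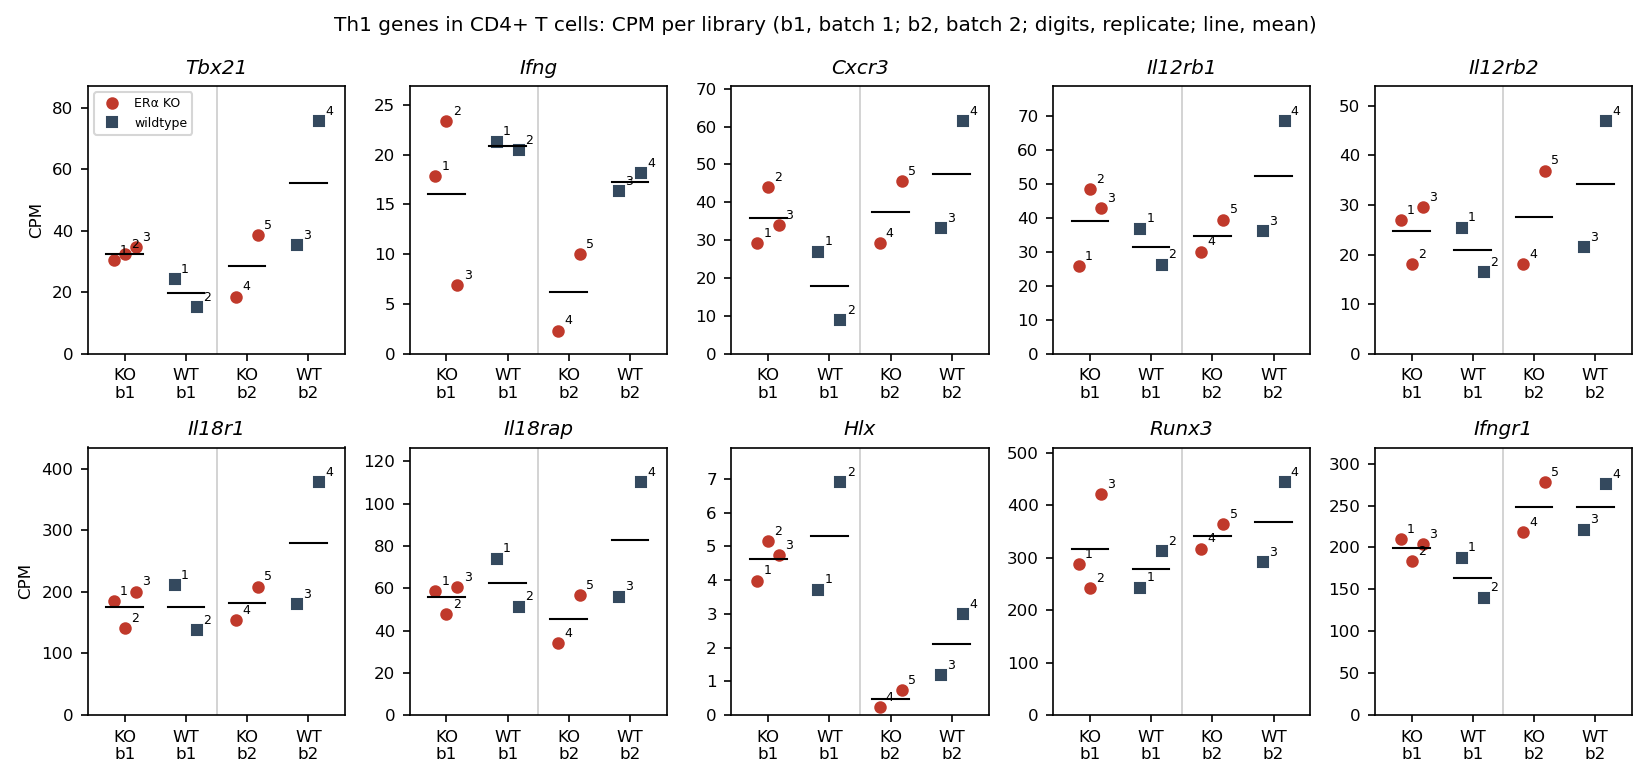
CPM of each gene (y axis, linear from 0) in the 9 libraries, ERα KO left of wildtype within each batch. Circles are ERα KO and squares wildtype libraries, digits are replicate numbers and lines are group means. In batch 2, wildtype replicate 4 is the highest point for 9 of 10 genes and ERα KO replicate 4 the lowest for 9 of 10.

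The promoters of the cytokine gene Ifng, of its regulator Tbx21 and of the T-bet target Il12rb2 are shown as examples. These genes had the same highest and lowest library in batch 2. That order was found for 8 of the 10 genes, where 11.4% of all genes showed it. Each is the 250 bases before the start, from RefSeq on GRCm38.p6. The processing notes name GRCm39, so these coordinates belong to the sequences and not to the counts. Capitals mark matches to TTCNNNGAA, a STAT motif, or to TATAAA, the TATA box.
Ifng, chr10:118440796-118441045, plus strand: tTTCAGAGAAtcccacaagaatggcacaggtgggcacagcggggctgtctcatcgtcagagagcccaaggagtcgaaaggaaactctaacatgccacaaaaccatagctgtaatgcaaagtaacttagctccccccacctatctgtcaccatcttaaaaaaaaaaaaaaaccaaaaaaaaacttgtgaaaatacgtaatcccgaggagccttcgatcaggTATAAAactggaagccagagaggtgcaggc
Il12rb2, chr6:67376189-67376438, minus strand: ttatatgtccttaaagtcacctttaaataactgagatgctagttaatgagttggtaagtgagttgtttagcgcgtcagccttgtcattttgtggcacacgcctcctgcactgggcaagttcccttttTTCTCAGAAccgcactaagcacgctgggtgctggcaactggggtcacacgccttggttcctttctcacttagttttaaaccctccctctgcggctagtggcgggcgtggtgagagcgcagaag
Tbx21, chr11:97115332-97115581, minus strand: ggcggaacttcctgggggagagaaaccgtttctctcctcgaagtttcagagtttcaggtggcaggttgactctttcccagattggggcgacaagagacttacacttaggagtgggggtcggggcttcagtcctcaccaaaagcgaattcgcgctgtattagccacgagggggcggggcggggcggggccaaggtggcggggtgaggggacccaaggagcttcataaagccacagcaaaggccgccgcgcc

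Motifs were searched as exact letters on both strands in windows of 250 bases. The STAT motif TTCNNNGAA began 249 bases before the start of Ifng and 123 bases before that of Il12rb2, and at 219 and 152 bases before 1 of the starts of Il18r1, and 7.02% of 32851 promoter windows of the same length hold it. TATAAA began 30 bases before the start of Ifng, where 12.4% of windows hold it. The T-box core TCACACC, found in 3.33% of windows, the AP-1 site TGANTCA, in 6.75%, and the estrogen response element, in 0.0639%, matched no window of the 9 genes of the programme that the table holds. Its half-site AGGTCA, in 14.0% of windows, matched none of them either. The RUNX core TGTGGT, in 14.0% of windows, matched those of Cxcr3 and Runx3. The windows of Cxcr3 and Hlx, and some of Il18r1 and Runx3, end in bases that a GENCODE M21 transcript of the gene also holds. The matches of Cxcr3 and Il18r1 lie in such windows, so they may fall in transcribed sequence. For the Runx3 window with matches, the start was not found in a transcript. No motif searched was found in the Tbx21 window, and a match is a description of letters only.

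Ifng encodes interferon gamma, the cytokine that defines Th1 cells and activates macrophages. Its batch 2 levels were 2.31 and 10.03 CPM in ERα KO replicates 4 and 5, from 145 and 548 counts, against 16.4 and 18.2 CPM in wildtype replicates 3 and 4, from 1142 and 818 counts. The groups did not overlap, and the ERα KO libraries differed more from each other than the wildtype libraries did. The log2 fold change was -1.48 ± 0.73 (SE; edgeR adjusted p = 0.707). In batch 1, Ifng was at 17.8, 23.4 and 6.90 CPM in ERα KO replicates 1, 2 and 3, against 21.3 and 20.5 CPM in wildtype replicates 1 and 2. Here the groups overlapped, and the low library was ERα KO replicate 3. The log2 fold change in batch 1 was -0.45 ± 0.42, and over both batches it was -0.91 ± 0.48 with a 95% interval of -1.99 to 0.16 (edgeR adjusted p = 1.00 for each). Exons of Ifng share 336 bases with the predicted gene Gm49751 on the same strand in GENCODE M21, and the division of reads between them is not given.

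Tbx21 encodes T-bet, the T-box factor that sets the Th1 fate. In batch 1 its level was 30.3, 32.3 and 34.5 CPM in the ERα KO libraries, against 24.3 and 15.02 CPM in the wildtype libraries. All ERα KO values lay above both wildtype values. In batch 2 the order was different: ERα KO replicates 4 and 5 stood at 18.5 and 38.6 CPM, against 35.2 and 75.7 CPM in wildtype replicates 3 and 4. These groups overlapped, since ERα KO replicate 5 was above wildtype replicate 3. The log2 fold changes were 0.52 ± 0.37 in batch 1 (edgeR adjusted p = 1.00) and -0.94 ± 0.54 in batch 2 (edgeR adjusted p = 0.736). The test of their difference gave -1.60 ± 0.55 on the log2 scale, batch 2 minus batch 1. It had the smallest p of the 10 genes, 0.0161 before adjustment, and did not pass over all 22197 genes (edgeR adjusted p = 0.554).

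Hlx encodes a homeobox factor that acts with T-bet on Ifng and Il12rb2 in mouse Th1 cells. In batch 2 it had 15 and 40 counts in ERα KO replicates 4 and 5, or 0.24 and 0.73 CPM, against 83 and 135 counts, or 1.19 and 3.00 CPM, in wildtype replicates 3 and 4. The groups did not overlap, and the spread from lowest to highest library, 12.6-fold, was the widest among the 10 genes in that batch. The log2 fold change was -2.08 ± 0.80, with a 95% interval of -4.11 to -0.06 and an unadjusted p of 0.0452 (edgeR adjusted p = 0.635). In batch 1 Hlx was at 3.99, 5.17 and 4.73 CPM in ERα KO, against 3.72 and 6.90 CPM in wildtype libraries, not far above the 0.27 to 2.76 CPM at which the cytokine genes named above stood in that batch. Its batch 1 log2 fold change was -0.28 ± 0.58 (edgeR adjusted p = 1.00).

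Runx3 encodes a Runt-domain factor that binds with T-bet at Ifng and silences Il4 in Th1 cells. It averaged 317 ± 92.8 CPM in ERα KO (SD, n = 3) and 278 ± 49.7 CPM in wildtype libraries (SD, n = 2) of batch 1. In batch 2 it averaged 341 ± 33.3 CPM in ERα KO and 368 ± 108 CPM in wildtype libraries (SD, n = 2 each). The groups overlapped in both batches. Over both batches the log2 fold change was 0.03 ± 0.17, with a 95% interval of -0.35 to 0.40 (edgeR adjusted p = 1.00). The sign of this small value turned to negative without the low-count filter, without the batch term and with a replicate block, as given under the dependence on processing.

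IL-12 is read by a receptor of 2 chains, IL-12Rβ1 from Il12rb1, shared with the IL-23 receptor, and IL-12Rβ2 from Il12rb2, which marks Th1 cells. Il12rb1 stood at 30.05 and 39.5 CPM in batch 2 ERα KO libraries, against 36.1 and 68.6 CPM in wildtype libraries. The batch 1 values were 25.7, 48.4 and 42.8 CPM in ERα KO, against 36.8 and 26.2 CPM in wildtype libraries. The groups overlapped in both batches, and only wildtype replicate 4 stood above 50 CPM. The batch 2 log2 fold change was -0.57 ± 0.32 (edgeR adjusted p = 0.719). Without wildtype replicate 3, which leaves wildtype replicate 4 as the only wildtype library, it was -0.94.

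Il12rb2 was at 18.1 and 36.9 CPM in batch 2 ERα KO libraries, against 21.4 and 47.0 CPM in wildtype libraries. The batch 1 values were 26.9, 18.02 and 29.6 CPM in ERα KO, against 25.4 and 16.4 CPM in wildtype libraries. In each batch the values of the genotypes interleaved. The log2 fold changes were 0.03 ± 0.37 in batch 1 and -0.29 ± 0.52 in batch 2 (edgeR adjusted p = 1.00 and 0.927). Without wildtype replicate 4 the batch 2 value was 0.32. Exons of Il12rb2 share 1519 bases with Serbp1 on the opposite strand in GENCODE M21, Serbp1 stood at 312 to 595 CPM, and the strand setting of the counting is not given, so reads of these genes may not have been told apart.

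IL-18 is bound by IL-18Rα, from Il18r1, and signals once IL-18Rβ, from Il18rap, joins. Il18r1 was at 154 and 208 CPM in batch 2 ERα KO libraries, against 181 and 378 CPM in wildtype libraries. The groups overlapped, and wildtype replicate 4 was the high library. In batch 1 it averaged 175 ± 31.0 CPM in ERα KO (SD, n = 3) and 175 ± 52.0 CPM in wildtype libraries (SD, n = 2). Its log2 fold changes were -0.19 ± 0.37 in batch 1 and -0.60 ± 0.39 in batch 2 (edgeR adjusted p = 1.00 and 0.750).

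Il18rap was at 34.1 and 56.7 CPM in batch 2 ERα KO libraries, against 56.0 and 110 CPM in wildtype libraries. ERα KO replicate 5 and wildtype replicate 3 were nearly level, so the groups overlapped by that pair. In batch 1 Il18rap was at 58.8, 47.9 and 60.6 CPM in ERα KO, against 74.0 and 51.4 CPM in wildtype libraries, and here too the groups overlapped. Its log2 fold changes were -0.36 ± 0.36 in batch 1 and -0.85 ± 0.41 in batch 2 (edgeR adjusted p = 1.00 and 0.705). Over both batches it had a log2 fold change of -0.53 ± 0.24, with a 95% interval of -1.05 to -0.0045. This was the 1 gene of the 10 with an unadjusted p under 0.05 over both batches, 0.0484, where 2.36% of all genes had one, and its edgeR adjusted p was 1.00.

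Ifngr1 encodes the chain of the interferon gamma receptor that binds the cytokine, and all T cells carry some of it. It averaged 248 ± 42.1 CPM in ERα KO and 248 ± 38.2 CPM in wildtype libraries of batch 2 (SD, n = 2 each). In batch 1 it averaged 199 ± 13.9 CPM in ERα KO (SD, n = 3) and 164 ± 33.9 CPM in wildtype libraries (SD, n = 2). The batch 2 log2 fold change was 0.01 ± 0.15, with a 95% interval of -0.38 to 0.39 (edgeR adjusted p = 0.997). Over both batches it was 0.12 ± 0.13 (edgeR adjusted p = 1.00), and without wildtype replicate 2 it was -0.13.

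Cxcr3 encodes the receptor for CXCL9 and CXCL10 that guides Th1 cells into inflamed tissue, and it lies on the X chromosome. The batch 1 levels were 29.3, 44.1 and 33.9 CPM in ERα KO, against 26.9 and 8.73 CPM in wildtype libraries. All ERα KO values lay above both wildtype values, and wildtype replicate 2, with 43 counts, was far below the others. In batch 2 Cxcr3 was at 29.2 and 45.6 CPM in ERα KO, against 33.2 and 61.5 CPM in wildtype libraries, and the groups overlapped. The log2 fold changes were 0.77 ± 0.42 in batch 1 (edgeR adjusted p = 1.00) and -0.32 ± 0.35 in batch 2 (edgeR adjusted p = 0.862). Without wildtype replicate 2 the value over both batches was -0.18, in place of 0.31.

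**Figure D2:**
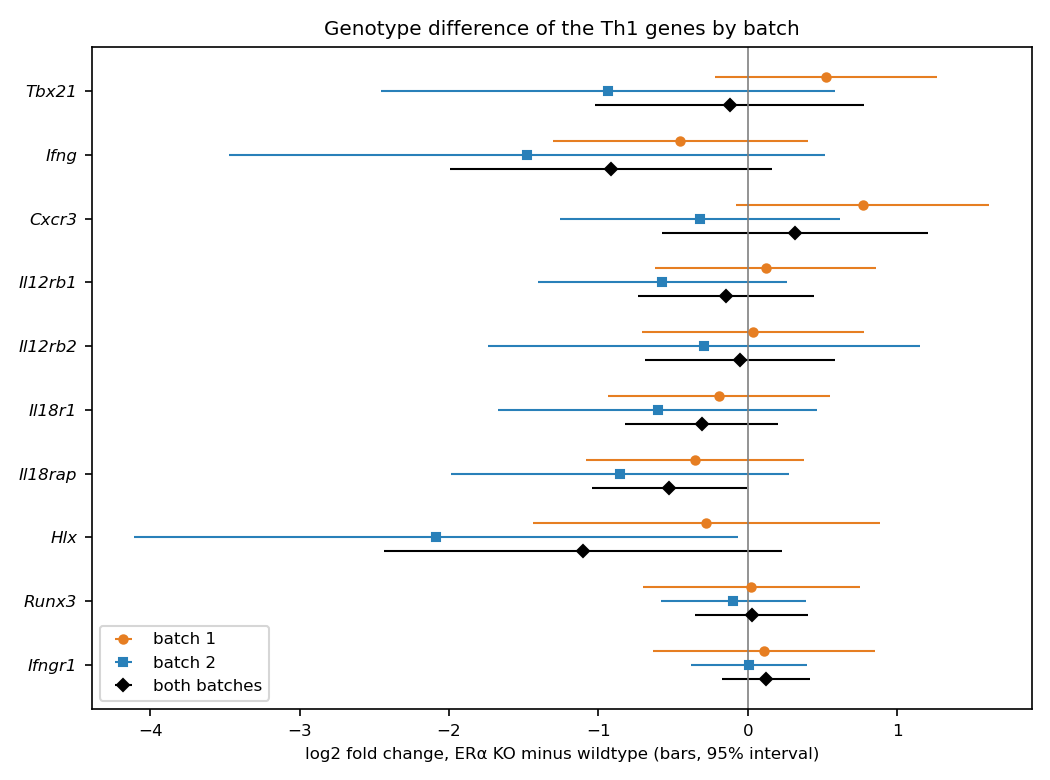
Log2 fold change, ERα KO minus wildtype, with its 95% interval, for each gene in batch 1 (circles), batch 2 (squares) and both batches (diamonds). The intervals cover 0 except those of Hlx in batch 2, which ends at -0.06, and of Il18rap over both batches, which ends at -0.0045.

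Set against all genes, these counts read as follows. Over both batches 0 of 10 genes passed, where 0.00451% of 22197 genes did. In batch 1 it was 0 of 10, where 0.126% of 24600 genes did (0.0528% lower and 0.0732% higher in ERα KO), and in batch 2 0 of 10, where 0% of 15910 did. DESeq2 and limma called 0 of the 10 in these comparisons as well, although DESeq2 called 329 genes in batch 2. An unadjusted p under 0.05 in edgeR was found for 1 of the 10, Hlx, in batch 2, where 7.77% of all genes had one, and for 0 in batch 1, where 1.97% had one. In batch 2 the groups did not overlap, with ERα KO lower, for 2 of 10 genes, Ifng and Hlx, where 20.5% of all genes met this, and with ERα KO higher for 0, where 19.6% did. In batch 1 they did not overlap, with ERα KO higher, for 2 of 10, Tbx21 and Cxcr3, where 10.9% of all genes met it, and with ERα KO lower for 0, where 5.19% did. A fold change below 0 was found for 9 of 10 genes in batch 2, where 52.2% of all genes had one, for 4 of 10 in batch 1, where 46.2% had one, and for 7 of 10 over both batches, where 48.6% had one. The 10 genes are not independent of each other.

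The interaction test, which asks whether the genotype difference depends on the batch, gave 10 of 10 values below 0 (batch 2 minus batch 1), where 61.9% of all genes were below 0. Their median was -0.74, against -0.19 over all genes, and 0 of 10 passed, where 0.00451% of genes did. Tbx21 was the 1 gene of the 10 with an unadjusted p under 0.05, where 8.36% of all genes had one. The largest sizes were those of Hlx at -1.87 ± 1.05, Tbx21 at -1.60 ± 0.55 and Cxcr3 at -1.25 ± 0.66 (edgeR adjusted p = 0.631, 0.554 and 0.618).

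The 10 genes ranked the batch 2 libraries much alike. Wildtype replicate 4 was the highest library for 9 of them, where it was the highest for 33.6% of all tested genes. ERα KO replicate 4 was the lowest for 9, where it was the lowest for 23.3% of all genes. Both held for 8 of the 10, all but Runx3 and Ifngr1, where 11.4% of all genes showed that order. On a scale of log2(CPM + 1) centred on the batch mean, the median over the 10 genes was -0.56 in ERα KO replicate 4 and 0.05 in ERα KO replicate 5, against -0.17 in wildtype replicate 3 and 0.76 in wildtype replicate 4. The medians farthest from 0 were thus those of replicate 4 of each genotype. Over both batches the count of genes with a negative fold change was 4 without wildtype replicate 4 and 4 without ERα KO replicate 4, in place of 7.

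In batch 1 the order of the libraries varied from gene to gene. Wildtype replicate 2 was the lowest library for 5 of the 10, where it was the lowest for 16.8% of all genes. The highest library varied, with ERα KO replicate 2 highest for 3, where it was highest for 9.27% of all genes, ERα KO replicate 3 for 3 and ERα KO replicate 1 for Ifngr1 alone, while wildtype replicate 1 was highest for Il18r1 and Il18rap and wildtype replicate 2 for Hlx. ERα KO replicate 2 was the highest and wildtype replicate 2 the lowest for Cxcr3 alone, where 3.84% of all genes showed that order. The medians of the 10 genes were 0.10, 0.04 and 0.25 in ERα KO replicates 1, 2 and 3, against 0.08 and -0.35 in wildtype replicates 1 and 2. Over all tested genes the medians in the same libraries were -0.03, -0.04 and 0.33 in ERα KO, against -0.23 and 0.08 in wildtype. Relative to all genes, the 10 genes were thus lower in ERα KO replicate 3 and wildtype replicate 2, and higher in ERα KO replicates 1 and 2 and wildtype replicate 1. Wildtype replicate 2 was also the shallowest library.

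**Figure D3:**
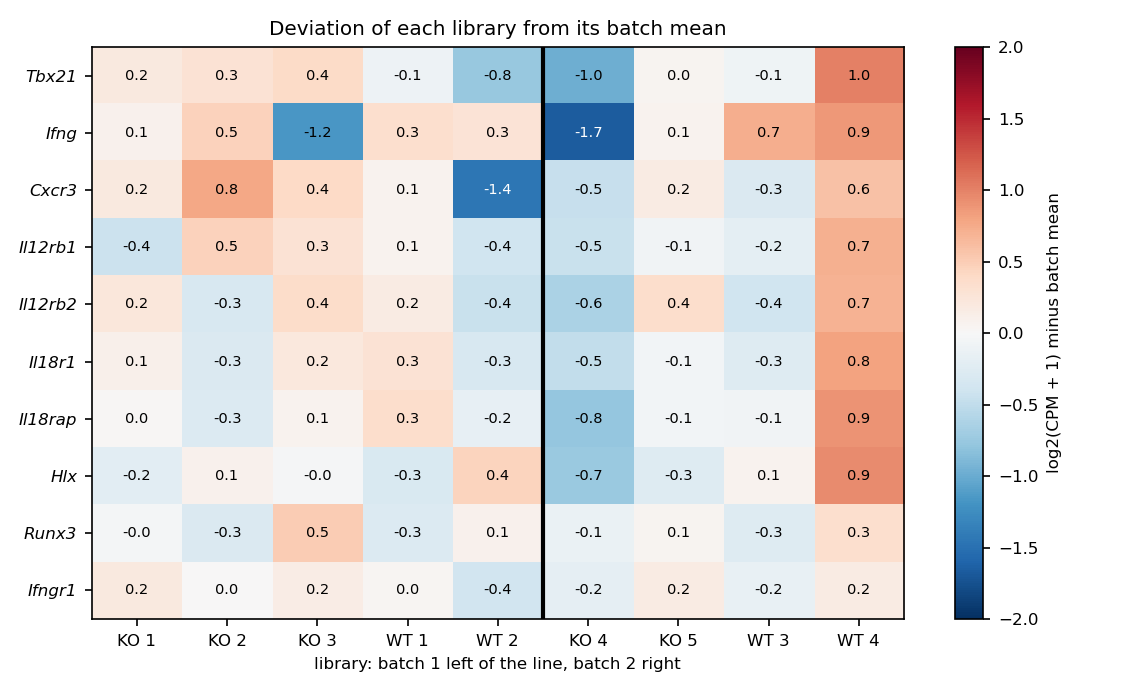
Log2(CPM + 1) of each gene (rows) in each library (columns) minus the gene's mean in its batch, with ERα KO (KO) left of wildtype (WT) in each batch. WT 4 is above the batch 2 mean for all 10 genes and KO 4 below it for all 10, while KO 5 lies between -0.27 and 0.35, and WT 3 between -0.41 and 0.07 apart from Ifng at 0.73.

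Levels also differed between batches. The batch term, batch 2 minus batch 1, passed for 3 of the 10 genes, where 64.1% of 22197 genes passed, 16.8% higher and 47.3% lower in batch 2. An unadjusted p under 0.05 was found for 4 of 10, where 67.8% of all genes had one, and a value below 0 for 2 of 10, where 62% had one. Ifngr1 and Runx3 were higher in batch 2, by 0.66 ± 0.13 and 0.46 ± 0.17 on the log2 scale (edgeR adjusted p = 0.00126 and 0.0333), and Hlx was lower, at -2.13 ± 0.63 (edgeR adjusted p = 0.0124). The median of all genes was -0.76, so these values stand on a scale that is itself shifted between batches. Depth and background moved with the batch, and so did the sex-linked transcripts apart from those of ERα KO replicate 3. The part of each in these differences cannot be told apart.

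The chains of a receptor can be compared within a library without any scaling, as a ratio of counts. These 3 ratios were chosen after the levels had been seen. For the IL-18 receptor, the ratio of Il18rap to Il18r1 was 0.318, 0.340 and 0.302 in ERα KO, against 0.350 and 0.373 in wildtype libraries of batch 1. In batch 2 it was 0.221 and 0.272 in ERα KO, against 0.310 and 0.292 in wildtype libraries. The ratio was lower in every ERα KO library than in every wildtype library of its batch. The mean log2 difference of the batches was -0.24, with p = 0.0333 in a two-sided exact permutation test of the genotype labels within batches, of which there are 60 arrangements and a smallest possible p of 0.0167. Adjusted over the 3 ratios p was 0.0999, which does not pass.

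The other receptors gave no such order. The ratio of Il12rb2 to Il12rb1 averaged 0.703 ± 0.338 in ERα KO (SD, n = 3) and 0.659 ± 0.044 in wildtype libraries (SD, n = 2) of batch 1, and 0.768 ± 0.236 in ERα KO and 0.639 ± 0.064 in wildtype libraries of batch 2 (SD, n = 2 each). Ifngr2 encodes the signalling chain of the interferon gamma receptor. Its ratio to Ifngr1 averaged 0.217 ± 0.014 in ERα KO (SD, n = 3) and 0.290 ± 0.094 in wildtype libraries (SD, n = 2) of batch 1, and 0.199 ± 0.060 in ERα KO and 0.161 ± 0.049 in wildtype libraries of batch 2 (SD, n = 2 each). Both had an adjusted p of 0.917 in the same exact permutation test.

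**Figure D4:**
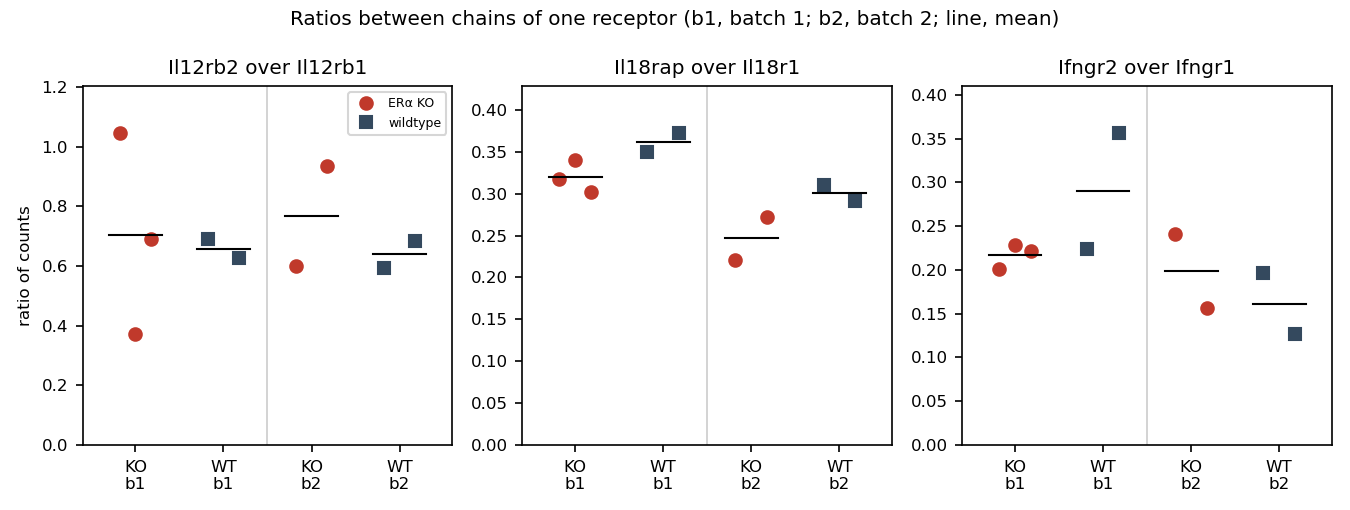
Ratio of counts between the chains of the IL-12, IL-18 and interferon gamma receptors in each library, ERα KO (circles) left of wildtype (squares) in each batch, with lines at group means. The Il18rap to Il18r1 ratio is lower in ERα KO in both batches, at 0.302 to 0.340 against 0.350 and 0.373 in batch 1, with adjusted p = 0.0999 over the 3 ratios in an exact permutation test.

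Which genes followed Tbx21 and Ifng most closely was asked over the 9 libraries, by the root mean square difference of log2(CPM + 1) centred on the batch means, among 15980 genes. Nearest to Tbx21 were Nkg7, a granule membrane gene of cytotoxic and Th1 cells, at 0.16, Kcnk5, a potassium channel, at 0.16, Palm, a membrane-shape protein, at 0.16, Anxa2, a membrane-binding annexin, at 0.17, and Tbkbp1, which binds the kinase TBK1, at 0.17. The spread of Tbx21 itself about its batch means was 0.56 on this scale. Tbkbp1 is the next gene to Tbx21 in the RefSeq gene order of GRCm38, and Il18rap likewise follows Il18r1. Nkg7 was at 11.3 and 34.8 CPM in ERα KO, against 21.1 and 52.9 CPM in wildtype libraries of batch 2, which is the order seen in Tbx21. Among the other genes of the programme, Il12rb2 was the nearest to Tbx21, with a difference of 0.32 and rank 118. Ifng was the farthest, with 0.74 and rank 13349. Ranked from Ifng, whose own spread was wider at 0.80, the same difference put Tbx21 at rank 1422.

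Ifng had no close neighbour. The nearest gene, the stress-response gene Nupr1, differed from it by 0.45, against a spread of 0.80 of Ifng itself. Nupr1 was sparse, with 0 to 79 counts. Esco2, a cohesin acetyltransferase, Polq, a DNA repair polymerase, the noncoding host gene Mir22hg and the kinetochore gene Ndc80 followed, at 0.46 to 0.49. Hlx and Il18rap were the nearest of the programme, at 0.61 and 0.64 and ranks 121 and 198.

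Genes around the Th1 pathway were grouped in 6 lists by role, and 0 genes of any list passed edgeR's test in either direction in batch 1, in batch 2 or over both batches. Other tools were not summarised for these lists. In batch 2 an unadjusted p under 0.05 was found for 2 of 15 signalling genes, 2 of 10 transcription partners, 3 of 15 effectors, 4 of 9 restraints, 0 of 18 interferon gamma response genes and 0 of 4 ligands, where 7.77% of all genes had one. Of the 8 ligand genes 6 were tested over both batches, and all 6 had a fold change above 0, where 48.6% of all genes were below 0, with a median of 0.21. Of these, Il12a and Il12b had 0 counts in batch 2 and stood at 0.27 to 1.97 CPM in batch 1, a level that cannot be told apart from background. In batch 1 alone 4 of 6 tested ligand genes were below 0, where 46.2% of all genes were, with a median of -0.085. Under DESeq2's size factors 5 of 6 were below 0. Il18bp, whose product neutralises IL-18, had 0.11 ± 0.27, Ebi3, a chain of IL-27, 0.31 ± 0.34, Il18 0.08 ± 0.57 and Il15 1.03 ± 1.05. Il18 was at 1.24 and 2.45 CPM in ERα KO, against 1.83 and 1.78 CPM in wildtype libraries of batch 2, so its groups overlapped.

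All 15 signalling genes were tested, with a median of -0.14 in batch 1 and 0.07 in batch 2. Jak1, a kinase of the interferon gamma receptor, had log2 fold changes of -0.35 ± 0.37 in batch 1 and 0.29 ± 0.12 in batch 2. Il2rb, the shared chain of the IL-2 and IL-15 receptors, had 0.48 ± 0.39 and -0.29 ± 0.17, and Il27ra, a chain of the IL-27 receptor, 0.20 ± 0.37 and 0.20 ± 0.13, in the same batches.

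Of the 10 transcription partners, 7 were lower in ERα KO in batch 2 and 5 in batch 1, where 52.2% and 46.2% of all genes were. The medians were -0.19 and -0.05, the second of which was 0.02 under upper-quartile scaling. The 4 most abundant had small values. Ets1, a cofactor of T-bet on Ifng, had 0.01 ± 0.14 over both batches, Runx1 -0.09 ± 0.10, Irf1, an interferon-induced factor, 0.03 ± 0.21, and Cbfb, the partner of the Runt-domain factors, -0.13 ± 0.15 (edgeR adjusted p = 1.00 for each). The restraints and factors of other lineages had a median of -0.21 over 10 tested in batch 1 and 0.26 over 9 in batch 2. Tcf7, a factor of naive and memory T cells, had log2 fold changes of -0.57 ± 0.35 in batch 1 and 0.29 ± 0.18 in batch 2, and Bach2, a repressor of effector genes, had -0.17 ± 0.37 and 0.49 ± 0.12. Foxo1, which keeps T cells quiescent, had -0.50 ± 0.36 and 0.26 ± 0.09, and Zbtb7b, the CD4 lineage factor, -0.05 ± 0.37 and -0.03 ± 0.13.

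The effector genes that go with Th1 cells had medians of opposite sign in the batches. In batch 1, 10 of the 12 tested had a fold change above 0 in ERα KO, where 46.2% of all genes were below 0. Their median was 0.53, against 0.04 over all genes. Under DESeq2's size factors 8 of the 12 were above 0, with a median of 0.37, against -0.08 over all genes. In batch 2, 14 of the 15 tested were below 0, where 52.2% of all genes were. Their median was -0.66, against -0.02 over all genes. Without wildtype replicate 4, 13 of 15 were below 0, with a median of -0.37. Without wildtype replicate 2 the batch 1 median was 0.14, against 0.32 over all genes. The median interaction value was -1.19 over 13 genes, against -0.19 over all genes, and 0 passed. Ccl5, a chemokine of activated T cells, averaged 70.6 ± 33.02 CPM in ERα KO (SD, n = 3) and 34.0 ± 15.7 CPM in wildtype (SD, n = 2) in batch 1, and 44.9 ± 20.2 CPM in ERα KO and 76.4 ± 42.8 CPM in wildtype in batch 2 (SD, n = 2 each). Cxcr6, a chemokine receptor of activated T cells, differed by -0.47 ± 0.39 in batch 1 and by -1.08 ± 0.41 in batch 2 on the log2 scale. Ly6c2, a surface marker of Th1 effector cells in mice, had 0.72 ± 0.39 and -0.25 ± 0.53, and Tnf had -0.18 ± 0.36 and -0.36 ± 0.19.

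The genes that interferon gamma induces in its target cells had positive medians in both batches. All 18 were tested. In batch 2, 13 had a fold change above 0, where 52.2% of all genes were below 0, with a median of 0.08, against -0.02 over all genes. In batch 1 it was 14, where 46.2% of all genes were below 0, with a median of 0.28, against 0.04 over all genes. Under DESeq2's size factors 12 were above 0 in batch 1, with a median of 0.14. Over both batches 16 of 18 were above 0, where 48.6% of all genes were below 0. The batch 1 median turned to -0.18 without wildtype replicate 2 and to -0.11 without ERα KO replicate 2, and the batch 2 median was -0.02 without ERα KO replicate 5. Nlrc5, the activator of MHC class I genes, had 0.21 ± 0.22 over both batches, Gbp4, a guanylate-binding protein, 0.10 ± 0.23, Tap1, a peptide transporter, 0.34 ± 0.16, and Gbp7 0.00 ± 0.22 (edgeR adjusted p = 1.00 for each). These genes respond to type I interferons too.

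**Figure D5:**
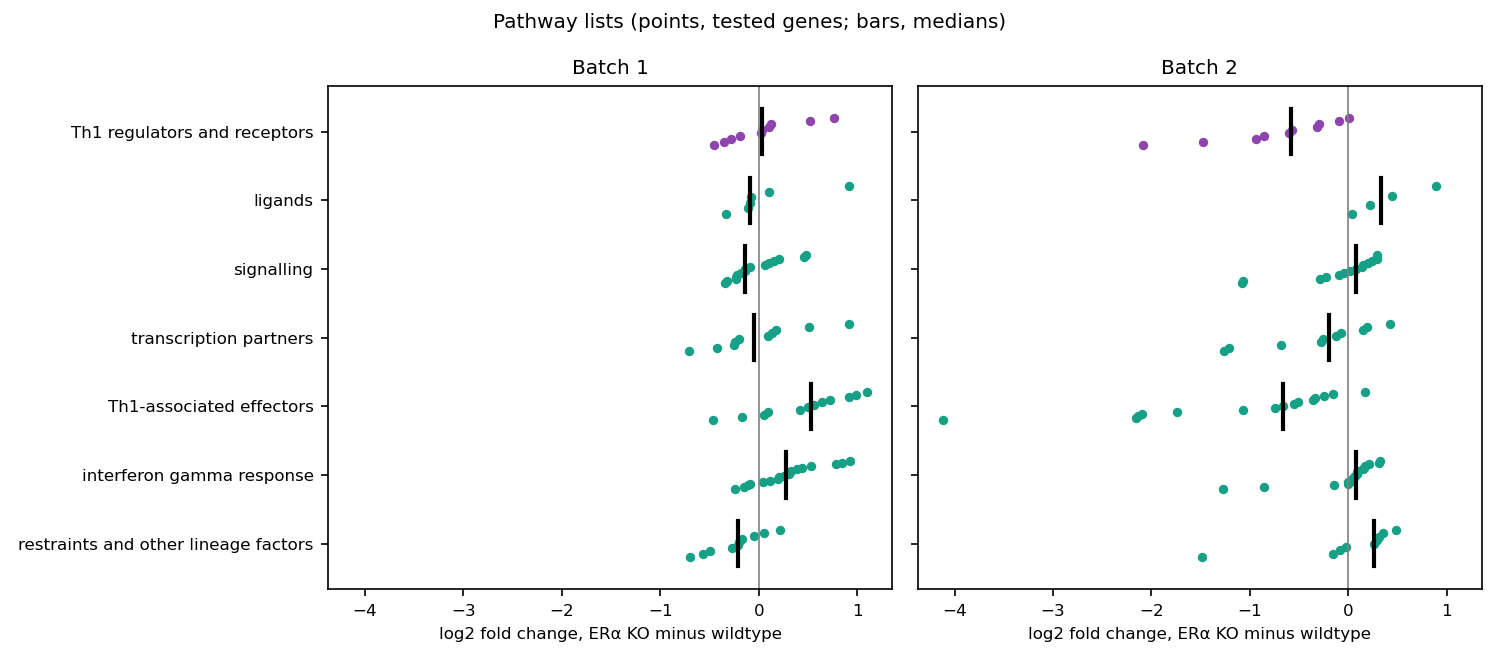
Log2 fold change, ERα KO minus wildtype, of each tested gene of 7 lists in batch 1 (left) and batch 2 (right), with bars at medians. The Th1 regulators and receptors have medians of 0.03 and -0.59, the Th1-associated effectors 0.53 and -0.66, and the interferon gamma response genes 0.28 and 0.08. Medians in batch 1 lie lower under DESeq2's size factors, at -0.12 for the regulators and receptors.

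Markers of other cell types were examined beside these values. The 6 natural killer (NK) cell markers summed to 7.92 and 5.25 CPM in batch 2 ERα KO libraries, against 14.0 and 13.6 CPM in wildtype libraries, so they were lower together with Ifng and Hlx there. Gzma, a granzyme that T cells also make, held most of the difference, at 1.37 and 1.23 CPM in ERα KO, against 6.53 and 6.93 CPM in wildtype libraries. Of the receptor genes in the list, 3 were also lower in ERα KO without overlap, where 20.5% of all tested genes were. They rest on few counts, such as 7 and 9 counts of Klre1 in ERα KO, against 39 and 11 in wildtype libraries. Klre1 was at 0.11 and 0.16 CPM in ERα KO, against 0.56 and 0.24 CPM in wildtype libraries, Klra8 at 0 and 0.20 CPM in ERα KO, against 0.57 and 0.67 CPM, and Klri2 at 0 and 0.33 CPM in ERα KO, against 0.73 and 0.96 CPM. The other two overlapped: Ncr1 was at 0 and 0.29 CPM in ERα KO, against 0.53 and 0 CPM in wildtype libraries, and Klrb1c at 6.44 and 3.04 CPM in ERα KO, against 5.10 and 4.75 CPM. In batch 1 the NK markers summed to 14.8 to 22.1 CPM in ERα KO, against 14.9 and 16.9 CPM in wildtype libraries.

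Of the 2 CD8 T cell markers, Cd8a was at 0 in both ERα KO libraries, against 0.16 and 0 CPM in wildtype libraries of batch 2. Cd8b1 was at 10.6 and 10.9 CPM in ERα KO, against 11.01 and 11.5 CPM in wildtype libraries of batch 2, and at 7.18 to 8.15 CPM in ERα KO, against 13.6 and 14.6 CPM in wildtype libraries of batch 1. It was thus lower in ERα KO without overlap in both batches, where 5.19% of all tested genes were in batch 1 and 20.5% in batch 2. In batch 2 the summed monocyte and macrophage markers and the summed dendritic cell markers ranked the libraries as Ifng and Hlx did. Most of the Th1 genes had another order, with ERα KO replicate 5 above wildtype replicate 3, such as Tbx21 (38.6 against 35.2 CPM). Among the single markers of these lists, only Cd68, C1qa and Xcr1 kept the order of the sums. The 6 monocyte and macrophage markers summed to 64.3 and 72.1 CPM in ERα KO replicates 4 and 5, against 100.7 and 131 CPM in wildtype replicates 3 and 4. The 6 dendritic cell markers summed to 2.64 and 3.66 CPM in the same ERα KO libraries, with 3 and 2 of them at 0, against 6.00 and 9.78 CPM in the wildtype libraries, with 0 and 2 of them at 0. In batch 1 the ranges overlapped, at 128 to 214 CPM in ERα KO against 58.5 to 157 CPM in wildtype libraries for monocytes and macrophages, and at 20.8 to 41.6 CPM against 11.7 to 25.6 CPM for dendritic cells. The 5 neutrophil markers summed to 4.69 and 5.97 CPM in ERα KO, against 107 and 17.2 CPM in wildtype libraries of batch 2. The 5 erythroid markers summed to 128 and 118 CPM in ERα KO there, against 1499 and 88.3 CPM. In batch 1 the neutrophil markers summed to 410 to 653 CPM in ERα KO, against 561 and 239 CPM in wildtype libraries. The 5 B cell markers summed to 37.1 to 77.7 CPM in ERα KO, against 57.6 and 41.0 CPM in wildtype libraries of batch 1. In batch 2 the B cell markers summed to 9.08 and 12.4 CPM in ERα KO, against 11.7 and 6.13 CPM. The part of these cells in the values of the Th1 genes was not tested.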

How the data were processed

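Per the file headers, the authors deposited estimated counts (expected counts) by gene symbol in a single table, unscaled between libraries. Salmon 1.2.0, R 4.0.3 and GRCm39 appear in the submitters' processing notes with no role given. Annotation, strand setting and the step from transcripts to genes were not stated. Counts were rounded, and the floor of 3 counts is 0.043 to 0.609 CPM, for counting error only. edgeR 4.0.16 in R 4.3.3 (quasi-likelihood test, TMM, filterByExpr by genotype with minimum count 10 and total 15) was fitted across all genes with batch and genotype, within each batch, and with their interaction, at an adjusted p of 0.05 (Benjamini-Hochberg). It was tested on simulated data. DESeq2 1.42.0, limma 3.58.1, other scalings and filters, and leaving out each library were alternatives. All 10 genes passed the filter in every comparison. Libraries of a group differed beyond sampling noise (chi-square per degree of freedom 4.80 to 153). The genes and lists were chosen with earlier results of these data known. Named pathway genes are the 4 of each list with the highest mean CPM (1 is not reported here), and likeness to Tbx21 and Ifng was ranked as described beside it, leaving out the other genes of the programme and predicted genes. RefSeq promoters were found for 9 of the 10 genes.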

Additional observations from a re-analysis of the deposited data

How the results depend on the processing

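No setting made any of the 10 genes pass in a genotype comparison or the interaction except Il12rb1 in batch 2 without wildtype replicate 3. That fit has wildtype replicate 4 as its lone wildtype library, so its call is not read as a difference. Calls over all genes in such batch 2 fits are given below. Counts of all genes called moved more. Over both batches 1 gene was called, 2 without the low-count filter, 16 with DESeq2, 0 with limma-voom and 0 without the batch term. In batch 1 it was 31, with 56 under DESeq2 size factors, 6 under upper-quartile scaling, 68 without the filter and 58 with the replicate block. In batch 2 it was 0, with 34 without the filter and 329 with DESeq2. For the interaction it was 1, with 2 without the filter, 165 with DESeq2 and 0 with limma-voom. For the batch term it was 14221, with 25837 without the filter, where 8 of the 10 genes passed in place of 3. The causes were not tested.

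Small values turned sign. Over both batches Runx3 was -0.086 without the filter and -0.041 without the batch term. In batch 1, 8 of the 10 genes were lower under DESeq2 size factors and with DESeq2 in place of 4. Il12rb1 was -0.029 and -0.028, and under both Il12rb2 was -0.12, Runx3 -0.11 and Ifngr1 -0.037. Without the filter Il12rb2 was -0.034 and Runx3 -0.029 in batch 1, and Ifngr1 was -0.0012 in batch 2.

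Leaving out each library in turn, with a lone sample assumed to vary like the others, gave 0 to 3 calls over both batches, 33 to 118 in batch 1, 0 to 879 in batch 2 and 1 to 238 for the interaction. It gave 4 to 10 of the 10 genes lower over both batches, 3 to 7 lower in batch 1, and 2 to 8 passing the batch term. Over both batches log2 fold changes ran from -0.57 to 0.26 for Tbx21, -0.18 to 0.61 for Cxcr3, -0.47 to 0.11 for Il12rb1, -0.37 to 0.23 for Il12rb2, -0.14 to 0.15 for Runx3 and -0.13 to 0.21 for Ifngr1. In batch 1 they ran from -0.26 to 0.59 for Il12rb1, -0.40 to 0.59 for Il12rb2, -0.62 to 0.35 for Il18r1, -0.75 to 0.13 for Il18rap, -0.092 to 0.14 for Runx3 and -0.25 to 0.53 for Ifngr1. In batch 2 they ran from -0.68 to 0.13 for Cxcr3, -0.90 to 0.32 for Il12rb2, -0.34 to 0.18 for Runx3 and -0.18 to 0.18 for Ifngr1. Interaction values ran from -1.10 to 0.16 for Il12rb2, -1.04 to 0.023 for Il18r1, -0.41 to 0.057 for Runx3 and -0.60 to 0.23 for Ifngr1. The log2 difference ran from -0.21 to 0.13 for Ifngr2 over Ifngr1, -0.071 to 0.30 for Il12rb2 over Il12rb1 and -0.31 to -0.16 for Il18rap over Il18r1. The leave-one-out runs of these ratios, the alternatives for the batch term and those for the pathway lists were chosen after seeing the data.

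Whether the replicate numbers pair the samples cannot be told from these values. Deviations of same-numbered libraries from their group means correlated at 0.357, -0.387, -0.0899 and -0.0602 across genes, for numbers 1 to 4. In a group of 2 libraries the deviations mirror each other, and the libraries numbered 3 lie in different batches. With the replicate block 1 gene was called over both batches, Runx3 was -0.20 over both batches and -0.071 in batch 1, and 0 of the 10 genes passed. In batch 2 the genotypes share only number 4, so no block could be fitted there. Depth limits batch 1 values most for Hlx, with 99 counts over the ERα KO and 76 over the wildtype libraries, and single values such as Ifng in ERα KO replicate 3 rest on 35 counts.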

Other observations

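Further genes of the lists had an unadjusted p under 0.05 in batch 2 and were chosen after their values were seen. Zeb2, a factor of terminal effector cells, was at 7.59 and 12.5 CPM in ERα KO, against 22.3 and 26.2 CPM in wildtype libraries (-1.26 ± 0.28 on the log2 scale, edgeR adjusted p = 0.618), and in batch 1 the difference was 0.51 ± 0.37. Gadd45b and Gadd45g, which carry IL-12 and IL-18 signals to Ifng through p38 kinase, had -1.08 ± 0.18 and -1.07 ± 0.21 (edgeR adjusted p = 0.618 for each), and in batch 1 0.06 ± 0.40 and -0.18 ± 0.42. Gadd45b was at 9.97 and 10.3 CPM in ERα KO, against 22.8 and 20.1 CPM in wildtype libraries. Bhlhe40, a factor needed for cytokine production by pathogenic T cells in EAE, had -1.21 ± 0.43 (edgeR adjusted p = 0.637), and in batch 1 -0.24 ± 0.38. Havcr2, which encodes the inhibitory receptor TIM-3 of Th1 cells, was at 4.26 and 10.5 CPM in ERα KO, against 15.3 and 34.7 CPM in wildtype libraries, with -1.74 ± 0.60 (edgeR adjusted p = 0.628). In batch 1 it averaged 8.55 ± 3.34 CPM in ERα KO (SD, n = 3) and 3.94 ± 1.56 CPM in wildtype libraries (SD, n = 2), or 0.91 ± 0.55 on the log2 scale (edgeR adjusted p = 1.00), and the interaction was -2.79 ± 0.76 (edgeR adjusted p = 0.456).

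Eomes, a T-box factor related to T-bet and also chosen after its values were seen, had a log2 fold change of 0.92 ± 0.41 in batch 1, 0.43 ± 0.30 in batch 2 and 0.74 ± 0.26 over both batches (edgeR adjusted p = 1.00, 0.760 and 1.00). It was at 11.97, 24.2 and 21.1 CPM in ERα KO, against 9.12 and 8.93 CPM in wildtype libraries of batch 1, and at 10.8 and 14.9 CPM in ERα KO, against 7.30 and 11.97 CPM in wildtype libraries of batch 2. In batch 1 the groups did not overlap, where 10.9% of all genes were higher in ERα KO in this way.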
